A study of Homo sapiens with 10 samples.

Results

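The comparison set the later hours of a time course, 4 to 7 h, against its first hours, 1 to 3 h, in MiaPaCa-2 cells, an established human pancreatic tumour cell line. All 7 arrays carried RNA of cells exposed to the supernatant of pancreatic stellate cells that had first been primed with pooled supernatant of tumour cell lines. The later window held 4 arrays (4, 5, 6 and 7 h) and the early window 3 (1, 2 and 3 h), 7 of the 10 arrays of the series. The other 3 arrays, a treated one at 24 h and controls at 0 h and 24 h, entered no test here. The labels give no untreated array at 1 to 7 h, no second array at any hour, and no statement that arrays came from separate cultures. The spread within a window therefore holds change with time as well as array error, a p-value here reflects nothing but the scatter of these arrays, and supernatant, hour and time in culture cannot be told apart. Levels are log2 intensities of Affymetrix U133 Plus 2.0 arrays, and differences are the mean of hours 4 to 7 minus the mean of hours 1 to 3 on that scale, so 1 unit is a 2-fold difference. The number of arrays, and not a read depth, limits the precision.

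Before a cell copies its DNA, the origin recognition complex, CDC6 and CDT1 load the MCM helicase onto origins, a step called licensing, and E2F transcription factors switch on many of the genes for licensing and for the replication fork as cells pass from G1 into S phase. ATF4, a transcription factor translated under amino acid shortage and other stress, drives genes for amino acid uptake and synthesis and stress outputs such as TRIB3. Immediate-early genes such as EGR and FOS are induced within minutes of a growth stimulus and then shut off by feedback.

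Genes of DNA replication were higher at the later hours, and genes of the ATF4 programme, immediate-early transcription factors and genes linked to FOXO and growth factor withdrawal lower. Of 11865 genes tested with limma, 2886 passed an adjusted p of 0.05 (24.3% of the genes tested). At hours 4 to 7, 1988 were higher (16.8%) and 898 lower (7.57%), with 93 and 48 at least 2-fold apart. These shares are the background for the list and family counts below, and a count near them is no result about the members. The median difference was 0.45 over the higher genes and -0.43 over the lower ones, against 0.03 over all genes tested. All 4 later arrays lay above all 3 early arrays for 2685 genes (22.6%) and below them for 1519 (12.8%). Among the called genes, 1887 of the 1988 higher and 844 of the 898 lower had windows apart in this way.

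The 2 h array had a compressed distribution, with an interquartile range over probe sets of 3.38 log2 units. The other early arrays had 3.57 at 1 h and 3.61 at 3 h, and the later arrays had between 3.64 and 3.80, so all later arrays were wider than all early ones. The ratio of 3′ to 5′ beta-actin probe sets, a sign of RNA quality, was between 0.36 and 0.50 log2 units at hours 4 to 7 and between 0.44 and 0.65 at hours 1 to 3. The part of either in the differences was not tested. With genes cut into 10 bins by level, the lowest bin at 2 h lay 0.07 above the 1 h array in the median, and bin 5 lay 0.16 below it.

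**Figure D1:**
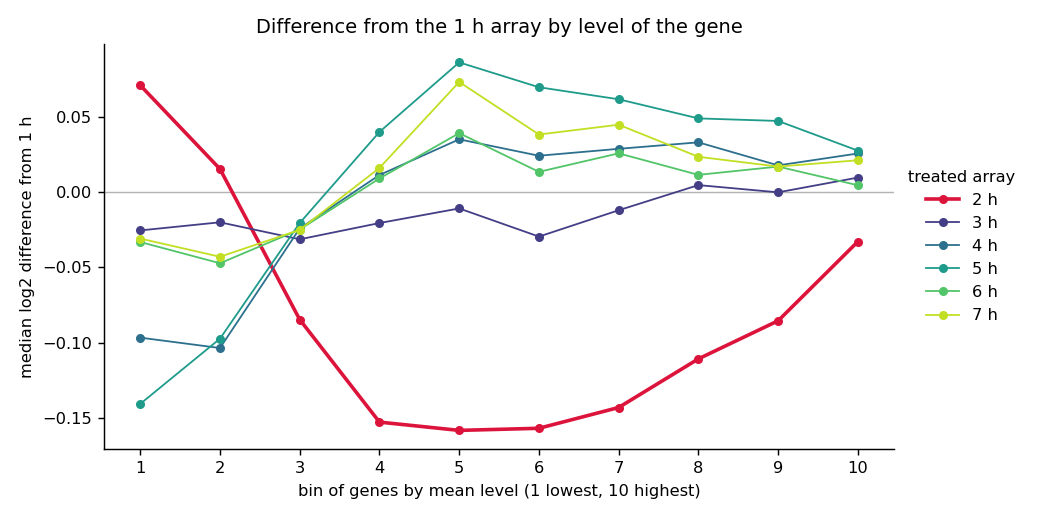
Median log2 difference of each treated array from the 1 h array (vertical axis), for genes in 10 bins of mean level (horizontal axis, 1187 genes in the lowest bin). The 2 h array, drawn as the thick line, is above 0 in the lowest bins and below 0 in bins 3 to 10, down to -0.16.

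Without the 2 h array, in a fit of 4 later against 2 early arrays, 606 genes passed (5.11%), of which 459 were higher (3.87%) and 147 lower (1.24%). Leaving out 1 array in turn, the count was also 1588 without 1 h, 1287 without 5 h, 1187 without 6 h and 1738 without 7 h, each over 1.5 times fewer than with all 7. Without 3 h and 4 h it was 3478 and 3082. The fits with and without the 2 h array shared 601 of the 606, and 5 passed only without the 2 h array. All 1988 higher and all 898 lower genes of the 7-array fit kept their direction without it, with 1972 and 893 at an unadjusted p under 0.05. The median difference was then 0.39 over the higher genes and -0.41 over the lower ones. These genes were picked on arrays that both fits share, so kept directions are no independent check. The 2 h array was the lowest of the early arrays for 1438 of the 1988 higher genes and the highest for 259 of the 898 lower ones. A low 2 h array was not particular to the called genes. Its median difference from the 1 h array was -0.09 over all genes tested, while that of the 3 h array was -0.01. The same count over all genes is not given, so how far 1438 and 259 depart from it is open. Rescaling the 7 arrays by cyclic loess gave 1551 higher and 1420 lower calls, and quantile scaling 1436 and 1431, with the median of all genes moved by -0.05 and -0.06. The excess of higher over lower calls thus depended on the scaling. All 2886 genes kept their direction under loess, 1537 of the 1988 and 889 of the 898 as calls. They were picked on the same arrays, so the kept direction is no independent check here either.

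Among cell-type markers, the keratins KRT8 and KRT18 and VIM were at high levels, while EPCAM and CDH1, defining epithelial genes, were below the filter on low values. KRT8 averaged 12.13 at hours 4 to 7 and 11.60 at hours 1 to 3, and CLDN4, a tight-junction protein, 7.48 and 8.30. Of the 9 stellate-cell or fibroblast markers tested, 0 were higher and 1 was lower at the later hours, against 16.8% and 7.57% of all genes tested. The median difference was -0.14, and the 1 did not pass without the 2 h array. LUM, POSTN, FAP and PDGFRB were below the filter. COL1A2, a collagen chain also made by fibroblasts, was at 11.63, 11.74, 11.55 and 11.49 at 4 to 7 h, against 11.87, 11.94 and 11.71 at 1 to 3 h, and did not pass (limma adjusted p = 0.0757). Its 3 probe sets were all lower, by -0.24 to -1.46, and their mean differed by -0.67 and passed (limma adjusted p = 0.00624).

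**Figure D2:**
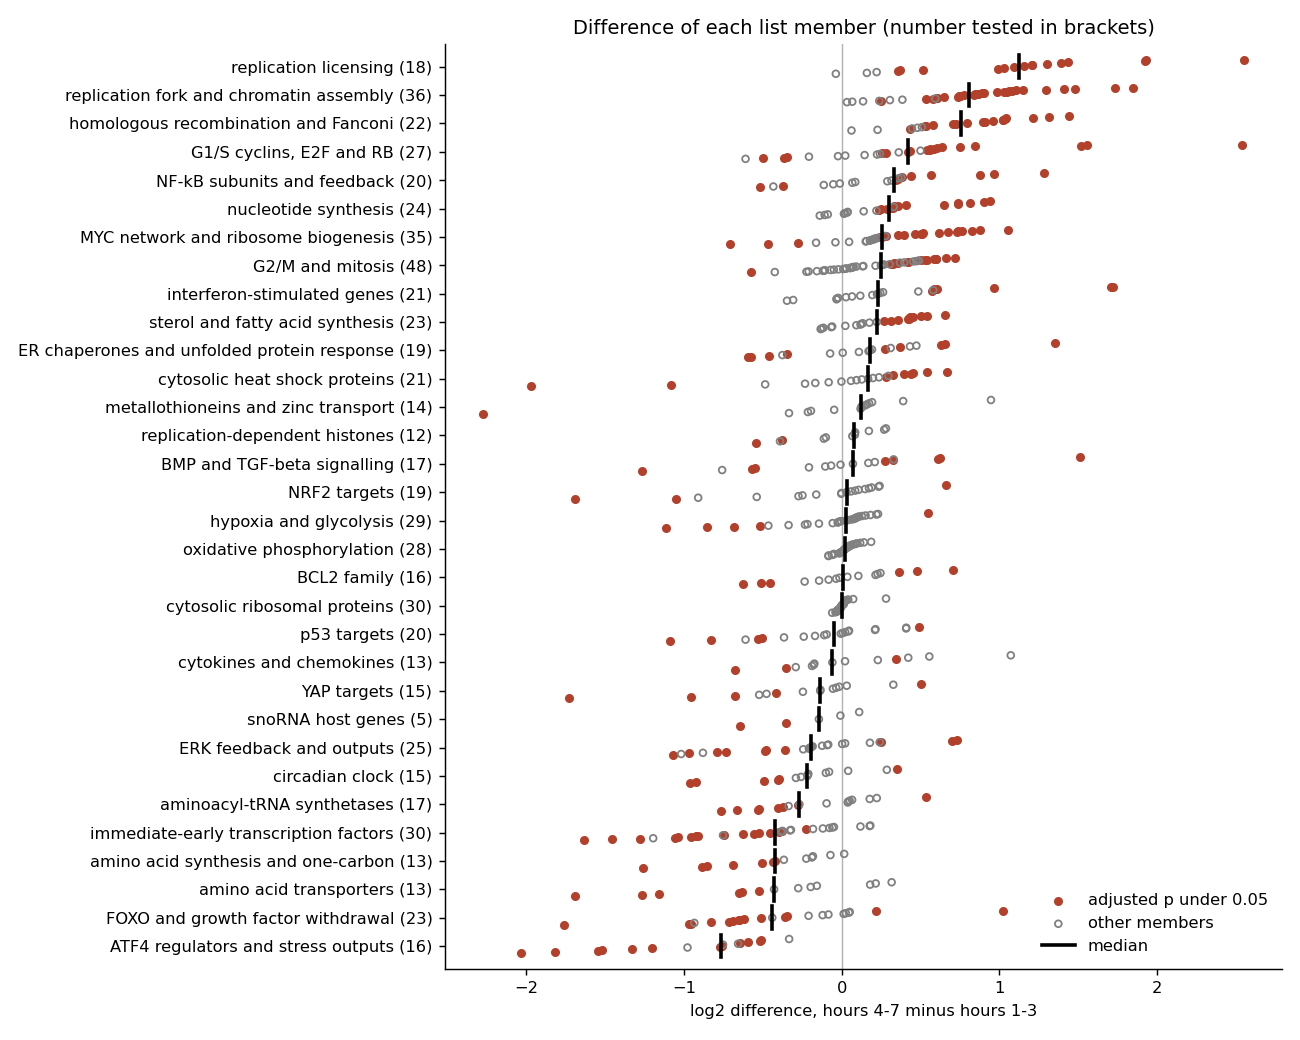
Log2 difference between hours 4 to 7 and hours 1 to 3 for each tested member of 32 gene lists (horizontal axis), ordered by list median (black bar). Filled points passed the adjusted p of 0.05 and open points did not. Replication licensing lies at the top with a median of 1.13, and the ATF4 list at the bottom with a median of -0.76.

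Licensing genes had the highest median of the 32 functional lists. Of 18 members, 15 were higher and 0 lower at the later hours, with a median difference of 1.13, against 0.03 over all genes. Without the 2 h array, 10 were higher and the median was 1.08. ORC1, the subunit of the origin recognition complex that is itself cell-cycle regulated, showed the largest rise by the rule used. Its levels were 7.45, 8.18, 8.63 and 8.90 at 4 to 7 h, against 5.46, 5.58 and 6.16 at 1 to 3 h. The later arrays averaged 8.29 ± 0.63 (SD, n = 4) and the early ones 5.73 ± 0.37 (SD, n = 3), a difference of 2.55 ± 0.32 (SE, limma adjusted p = 0.00677). No later array overlapped an early one, and each hour was above the one before. Without the 2 h array the difference was 2.48 (adjusted p = 0.0355).

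CDC6, the loader that brings the helicase to ORC, had 8.75, 9.64, 9.93 and 10.05 at 4 to 7 h, against 7.41, 7.47 and 8.13 at 1 to 3 h. The difference was 1.92 ± 0.30 (limma adjusted p = 0.0076), and 1.82 without the 2 h array. CDT1, the other loading factor, rose by 1.43 ± 0.16 and CDC7, the kinase that fires loaded origins, by 0.99 ± 0.14 (limma adjusted p = 0.00642 and 0.00697). MCM10, which helps turn the loaded helicase into an active one, had 7.92, 8.77, 9.18 and 9.49 at 4 to 7 h, against 6.89, 6.65 and 7.19 at 1 to 3 h. Its difference was 1.93 ± 0.32 (limma adjusted p = 0.00854), with the windows apart as the rule for the largest rises required.

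Values also varied among the subunits of a complex, without a test between them. All 6 subunits of the MCM2 to MCM7 helicase were higher, between 0.37 for MCM6 and 1.39 for MCM4, and MCM6 already had 11.48 at 1 h. Of the 6 ORC subunits only 3 passed, and ORC4 differed by -0.04 ± 0.07 while ORC6 rose by 1.10 ± 0.17. All 4 GINS subunits, which join the MCM ring in the active helicase, were higher, between 0.86 for GINS1 and 1.85 for GINS2. With the 2 h array left out, 2 of the 6 MCM, 2 of the 6 ORC and 2 of the 4 GINS subunits were higher, with adjusted p = 0.132 for MCM6. MCM4, MCM6, ORC4 and GINS1 were chosen after their values were seen.

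Genes of the fork and of chromatin assembly followed. Of 36 tested, 29 were higher and 0 lower, with a median difference of 0.81, and 11 were higher without the 2 h array. GINS2 had 8.33, 9.34, 9.62 and 9.97 at 4 to 7 h, against 7.42, 7.17 and 7.80 at 1 to 3 h, a difference of 1.85 ± 0.34 (limma adjusted p = 0.00993). Without the 2 h array its adjusted p was 0.0533. POLD3, a subunit of DNA polymerase delta, rose by 1.48 ± 0.21 and GINS3 by 1.15 ± 0.18 (limma adjusted p = 0.00697 and 0.00713). UHRF1, which guides maintenance methylation to newly copied DNA, had 10.09, 10.74, 11.08 and 11.27 at 4 to 7 h, against 8.83, 8.99 and 9.37 at 1 to 3 h. It differed by 1.73 ± 0.26 (limma adjusted p = 0.00697), and every hour was above the one before. Of the 5 RFC subunits, which load the sliding clamp, 4 were higher, while RFC1 differed by 0.03. Of the 3 subunits of RPA, which coats single-stranded DNA, 1 was higher. In limma 0 RFC and 0 RPA subunits passed without the 2 h array (4 and 1 at an unadjusted p under 0.05). Probe sets above the filter differed in direction for GINS2, with 1 at -0.12, and for POLD3, with 1 at -0.06.

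In the list of G1/S cyclins, E2F and RB genes, 15 of 27 were higher and 3 lower, with a median of 0.42, and leaving out the 2 h array left 4 higher and 0 lower. CCNE2, a cyclin that activates CDK2 for entry into S phase, had 9.04, 9.68, 9.81 and 9.79 at 4 to 7 h, against 6.44, 6.65 and 8.01 at 1 to 3 h. The later arrays averaged 9.58 ± 0.37 (SD, n = 4) and the early ones 7.04 ± 0.85 (SD, n = 3), a difference of 2.54 ± 0.35 (limma adjusted p = 0.00677). Its largest step was between 2 and 3 h, 1.36, so that the 3 h array already stood well above the other early ones. CDC25A, the phosphatase that activates CDK2, rose by 1.52 ± 0.20, and CCNA2, the S-phase cyclin, by 0.59 ± 0.10 (limma adjusted p = 0.00677 and 0.00961). E2F8, a repressor that is itself an E2F target, had 7.06, 7.42, 7.69 and 7.92 at 4 to 7 h, against 6.03, 5.89 and 5.98 at 1 to 3 h. The early arrays lay within 0.14 of each other, and the difference was 1.56 ± 0.18 (limma adjusted p = 0.00642). Of the 8 E2F genes tested 5 were higher, between 0.26 for E2F3 and E2F8's value, and E2F8 was the 1 that passed without the 2 h array.

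DTL, ZNF367 and SLF1 were also among the largest rises. DTL, the substrate receptor that marks CDT1 for destruction in S phase, had 9.43, 10.36, 10.56 and 10.82 at 4 to 7 h, against 8.86, 8.49 and 8.86 at 1 to 3 h. Its difference of 1.55 ± 0.28 passed with all arrays (limma adjusted p = 0.00999) and missed the threshold without the 2 h array (0.054). ZNF367, a zinc-finger protein, had 9.13, 9.77, 9.78 and 9.85 at 4 to 7 h, against 7.66, 7.53 and 8.07 at 1 to 3 h, a difference of 1.88 ± 0.19 (limma adjusted p = 0.00642). SLF1, which works with SMC5/6 at stalled forks, rose by 1.57 ± 0.21 (limma adjusted p = 0.00677).

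Nucleotide synthesis genes were higher in 14 of 24 and lower in 0, with a smaller median of 0.30; 4 were higher without the 2 h array. PPAT, the first committed enzyme of purine synthesis, had 9.88, 10.08, 10.06 and 9.87 at 4 to 7 h, against 9.20, 9.01 and 9.26 at 1 to 3 h (difference 0.82 ± 0.09, limma adjusted p = 0.00642). It was on a plateau from 4 h, and 1 of its 3 probe sets above the filter differed by -0.03. RRM2, the regulated subunit of ribonucleotide reductase, rose by 0.94 ± 0.15, CTPS1, which makes CTP, by 0.90 ± 0.15, and UMPS, which makes UMP, by 0.74 ± 0.12 (limma adjusted p = 0.00799, 0.0082 and 0.00807). In the homologous recombination and Fanconi list, 17 of 22 were higher and 0 lower, with a median of 0.76; 5 were higher without the 2 h array. MSH6, a mismatch sensor, rose by 1.04 ± 0.17, UBE2T, the ubiquitin-conjugating enzyme of the Fanconi pathway, by 1.04 ± 0.18, and FANCM, a fork remodeller, by 0.91 ± 0.15 (limma adjusted p between 0.00787 and 0.00897).

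Of 48 genes of G2 and mitosis tested, 14 were higher and 1 lower, with a median of 0.25, and 2 were higher without the 2 h array. BIRC5, an inhibitor of apoptosis with a role on mitotic chromosomes, rose by 0.53 ± 0.10, although 1 of its 4 probe sets gave -0.27, and CCNF, the cyclin-like F-box protein, by 0.42 ± 0.08 (limma adjusted p = 0.00993 and 0.00967). CDC25B, the phosphatase that starts mitotic CDK activation, fell by 0.57 on the log2 scale (limma adjusted p = 0.0143, and 0.065 without the 2 h array). Of the 9 mitotic kinesins, 2 were higher, and 0 in limma without the 2 h array (2 at an unadjusted p under 0.05). Over all genes tested 16.8% were higher and 7.57% lower with all 7 arrays, so the kinesin count lay near that share. Of 12 replication-dependent histone genes above the filter, 0 were higher and 2 lower, and 0 passed in limma without the 2 h array (3 at an unadjusted p under 0.05); their mRNAs end in a stem-loop in place of a poly(A) tail, and 22 further listed histone genes on the array lay below the filter.

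Short stretches of promoter show sites of the kind that E2F and stress factors bind in some of these genes. They are from RefSeq on GRCh38.p14, on the strand of the gene, with the motif in capitals. ZNF367 (minus strand, chr9:96418371-96418451), DTL (plus strand, chr1:212035694-212035747) and CDC25A (minus strand, chr3:48188418-48188507) are shown for E2F, MCM10 (plus strand, chr10:13161483-13161557) for the cyclic AMP response element, and KLHDC7B (plus strand, chr22:50545702-50545801) for the element to which ATF4 and C/EBP bind.
ZNF367: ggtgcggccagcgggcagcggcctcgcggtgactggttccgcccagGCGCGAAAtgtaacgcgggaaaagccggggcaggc
DTL: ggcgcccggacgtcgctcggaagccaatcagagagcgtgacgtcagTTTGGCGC
CDC25A: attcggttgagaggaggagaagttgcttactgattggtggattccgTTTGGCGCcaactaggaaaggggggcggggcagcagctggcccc
MCM10: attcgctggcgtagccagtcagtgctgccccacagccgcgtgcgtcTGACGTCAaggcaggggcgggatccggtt
KLHDC7B: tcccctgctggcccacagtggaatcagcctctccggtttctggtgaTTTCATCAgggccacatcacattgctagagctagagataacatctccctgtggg

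The search covered the 250 bases before each gene's start on both strands, in 27305 genes. TTTCGCGC or TTTGGCGC, E2F letters that can overlap each other, were found in 1.2% of these genes and in 1.99% of those tested. Among the genes at least 2-fold higher that have a promoter in the table, they were found in 8 of 80, namely CASP8AP2, CDC25A, DTL, GMNN, MCM7, TIPIN, UHRF1 and ZNF367. Among the genes at least 2-fold lower they were found in 0 of 38. TGATGNAA, the ATF4 element, was in 3 of the 38 lower (7.89%), 2 of the 80 higher (2.5%) and 2.2% of the genes tested. The cell-cycle homology element TTTGAA was in 10 of the 80 higher (12.5%) and 11.9% of the genes tested. TGACGTCA was in 4 of the 80 higher and 0 of the 38 lower, against 3.51% of the genes tested, and the AP-1 letters TGACTCA in 1 and 3, against 4.03%. ORC1, CDC6 and TRIB3 held none of these letters in the window. These counts describe letters only and were not tested.

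**Figure D3:**
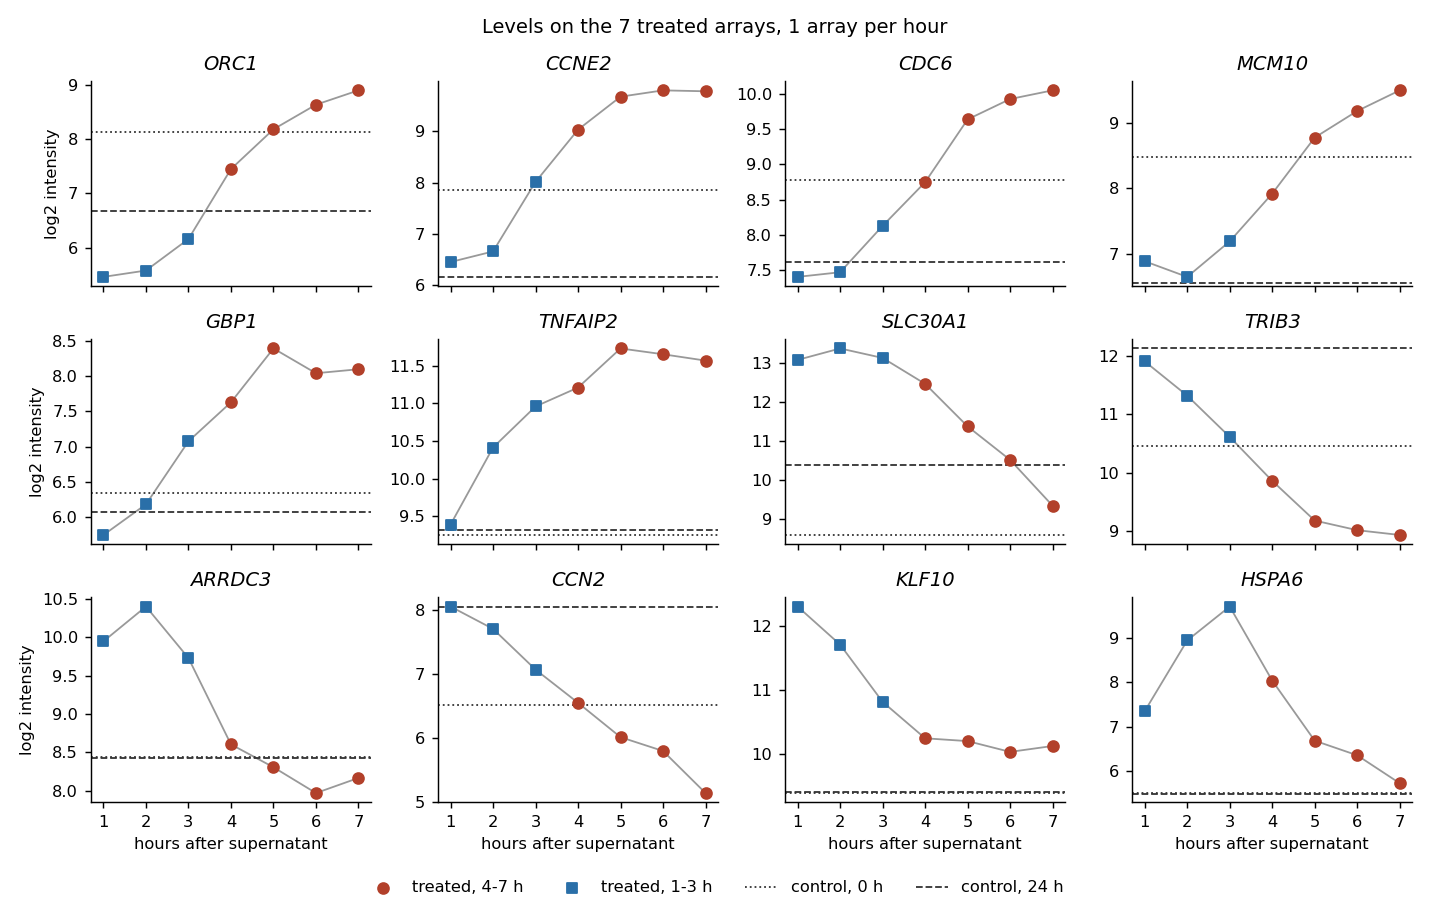
Log2 intensity (vertical axis) against hours after the supernatant (horizontal axis) for 12 genes, 1 array per hour, with circles for hours 4 to 7 and squares for hours 1 to 3. The dotted and dashed lines mark the 0 h and 24 h controls. ORC1, CCNE2, CDC6 and MCM10 climb through the border between 3 and 4 h, SLC30A1 stays above 13 until 3 h and then falls, and HSPA6 peaks at 3 h.

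The largest fall by the rule used was that of a single zinc exporter. SLC30A1, the zinc exporter of the plasma membrane, was at 12.46, 11.37, 10.51 and 9.33 at 4 to 7 h, against 13.08, 13.37 and 13.13 at 1 to 3 h. The difference was -2.27 ± 0.59 (limma adjusted p = 0.0261). The windows did not overlap, as the rule for the largest falls required. The later arrays ran over more than 3 log2 units, and without the 2 h array the limma adjusted p was 0.102. The 0 h and 24 h controls had 8.58 and 10.37, so the 7 h array lay between them. In the list of metallothioneins and zinc transport, SLC30A1 was the 1 gene of 14 that was lower, and 0 were higher. Over all genes tested 7.57% were lower and 16.8% higher. Metallothioneins, zinc-binding proteins that share the zinc-responsive factor MTF1 with SLC30A1, gave no calls: 0 of 7 passed in limma (1 at an unadjusted p under 0.05), and their differences lay between 0.12 and 0.95. MT1M, named after its values were seen, had 11.44, 11.62, 11.48 and 11.60 at 4 to 7 h, against 9.31, 10.93 and 11.51 at 1 to 3 h. Metallothionein sequences are close, so probe sets may share signal. MT1E and MT2A averaged 14.51 and 14.55 at hours 4 to 7, near the top of the scale, where changes can be hidden.

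Of the 16 ATF4 regulators and stress outputs, 0 were higher and 12 lower at the later hours, with a median of -0.76; 0 and 4 passed without the 2 h array, with a median of -0.93. TRIB3, a pseudokinase that feeds back on ATF4 signalling, had 9.86, 9.18, 9.01 and 8.93 at 4 to 7 h, against 11.90, 11.32 and 10.61 at 1 to 3 h. The later arrays averaged 9.24 ± 0.42 (SD, n = 4) and the early ones 11.28 ± 0.65 (SD, n = 3). The difference was -2.03 ± 0.30 (limma adjusted p = 0.00697), and -2.01 without the 2 h array (0.0415). KLHDC7B, a Kelch-domain protein, was at 6.95, 6.33, 6.57 and 5.78 at 4 to 7 h, against 8.77, 8.15 and 7.77 at 1 to 3 h (difference -1.82 ± 0.29, limma adjusted p = 0.0076). NUPR1, a stress-induced nuclear protein, was at 7.54, 7.21, 6.55 and 6.55 at 4 to 7 h, against 9.02, 8.28 and 8.16 at 1 to 3 h (difference -1.52 ± 0.28, limma adjusted p = 0.01). ATF5, a paralog of ATF4, differed by -0.51 ± 0.10. All 4 had their windows apart, which the rule for the largest falls required of TRIB3, KLHDC7B and NUPR1.

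Further lists hold genes of amino acid supply that ATF4 can control. In amino acid synthesis and one-carbon metabolism 7 of 13 were lower and 0 higher, with a median of -0.42, and among amino acid transporters 6 of 13 were lower and 0 higher, with a median of -0.43. Without the 2 h array 1 and 4 were lower. SLC7A11, the cystine importer, had 10.33, 9.49, 8.82 and 8.11 at 4 to 7 h, against 10.97, 10.80 and 10.86 at 1 to 3 h. Its difference of -1.69 ± 0.42 passed in the 7-array fit (limma adjusted p = 0.0234) and not without the 2 h array (0.0839). SLC1A4, a carrier of neutral amino acids, had 8.05, 7.52, 7.31 and 7.53 at 4 to 7 h, against 9.28, 8.77 and 8.56 at 1 to 3 h, a difference of -1.27 ± 0.20 (limma adjusted p = 0.00799). PSPH, the last enzyme of serine synthesis, differed by -0.85 ± 0.15 and GOT1, the cytosolic aspartate aminotransferase, by -0.89 ± 0.20 (limma adjusted p = 0.0099 and 0.0158, the second 0.0589 without the 2 h array). Of 17 aminoacyl-tRNA synthetases, which charge tRNAs, 7 were lower and 1 higher, with a median of -0.27, and 0 passed in either direction without the 2 h array (9 at an unadjusted p under 0.05). CARS1, for cysteine, differed by -0.77 ± 0.17 (limma adjusted p = 0.0159, and 0.0565 without the 2 h array).

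The ER branch of the stress response did not move as one. Of 19 ER chaperone and unfolded-protein-response genes, 5 were higher and 4 lower, against 16.8% and 7.57% of all genes tested. The median was 0.18, and 1 and 1 passed without the 2 h array. SDF2L1, an ER chaperone cofactor, had 8.84, 9.31, 9.32 and 9.53 at 4 to 7 h, against 7.67, 7.53 and 8.49 at 1 to 3 h, a difference of 1.36 ± 0.24 (limma adjusted p = 0.00897). DNAJB9, another ER cochaperone, differed by -0.59 ± 0.08 (limma adjusted p = 0.00677).

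Of 30 immediate-early transcription factors, 16 were lower and 0 higher at hours 4 to 7, with a median of -0.42; 4 were lower without the 2 h array. FOSL1, an AP-1 subunit, had 9.88, 9.52, 9.42 and 9.33 at 4 to 7 h, against 10.71, 10.98 and 10.77 at 1 to 3 h. The early arrays showed no decline, and the difference was -1.28 ± 0.13 (limma adjusted p = 0.00642). EGR3, a zinc-finger factor, was likewise flat and then lower, with 9.13, 8.60, 7.85 and 7.55 at 4 to 7 h, against 9.95, 9.76 and 10.05 at 1 to 3 h (difference -1.64 ± 0.33, limma adjusted p = 0.0122, and 0.0525 without the 2 h array). KLF10, a TGF-beta-inducible repressor, fell earlier, with 10.25, 10.20, 10.03 and 10.13 at 4 to 7 h, against 12.30, 11.71 and 10.81 at 1 to 3 h. It differed by -1.46 ± 0.28 (limma adjusted p = 0.011, and 0.0565 without the 2 h array). EGR1 had 12.15, 12.33, 11.98 and 12.78 at 4 to 7 h, against 13.47, 13.02 and 12.68 at 1 to 3 h. Its 7 h level exceeded its 3 h level, so its windows overlapped, and the difference was -0.75 ± 0.22 (limma adjusted p = 0.0372, and 0.111 without the 2 h array). The call was also lost without the 1, 4, 5 or 6 h array. Of the 7 FOS and JUN genes tested 3 were lower (FOSL1, FOSL2 and JUND). FOS differed by -0.08, FOSB by -1.19 and JUN by -0.18, and none of these passed.

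In the feedback of ERK signalling 7 of 25 genes were lower and 3 higher, against 7.57% and 16.8% of all genes tested, with a median of -0.20. Without the 2 h array 1 was lower and 0 were higher (12 in either direction at an unadjusted p under 0.05 in limma). SPRED2, an inhibitor of RAF activation, lay between 8.99 and 9.48 at 4 to 7 h, against 10.54, 10.26 and 9.99 at 1 to 3 h, a difference of -1.07 ± 0.16 (limma adjusted p = 0.00697). DUSP2, a nuclear MAP kinase phosphatase, went the other way, by 0.70 ± 0.14 (limma adjusted p = 0.0125, and 0.0611 without the 2 h array). SPRY4, a feedback inhibitor of receptor signalling, differed by -0.36 ± 0.07 and SPRY1, chosen after its values were seen, by 0.73 ± 0.21. Both passed with all 7 arrays and missed the threshold without the 2 h array (limma adjusted p = 0.0523 and 0.137).

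Of 23 genes linked to FOXO factors and growth factor withdrawal, 12 were lower and 2 higher, with a median of -0.44; 4 and 1 passed without the 2 h array. ARRDC3, an arrestin-domain protein that helps remove receptors from the surface, had 8.60, 8.31, 7.97 and 8.17 at 4 to 7 h, against 9.94, 10.40 and 9.73 at 1 to 3 h. The difference was -1.76 ± 0.18 (limma adjusted p = 0.00642), and -1.57 without the 2 h array, the highest of the early ones (0.0355). ARRDC2, its relative, differed by -0.65 ± 0.09 and YPEL3, a growth suppressor, by -0.97 ± 0.17 (limma adjusted p = 0.00677 and 0.00897). SOX4, a developmental transcription factor, rose by 1.02 ± 0.11 (limma adjusted p = 0.00642). Among 15 YAP targets 4 were lower and 1 higher, against 7.57% and 16.8% of all genes tested. Without the 2 h array 0 were lower and 1 higher (10 at an unadjusted p under 0.05 in limma). CCN2, a matricellular protein, had 6.55, 6.02, 5.80 and 5.15 at 4 to 7 h, against 8.05, 7.71 and 7.07 at 1 to 3 h, and each hour was below the one before. It differed by -1.73 ± 0.32 (limma adjusted p = 0.00999, and 0.0528 without the 2 h array).

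ABCG1, JDP2 and TUBE1 were also among the 12 largest falls. ABCG1, a cholesterol exporter, had 7.03, 6.37, 5.78 and 5.85 at 4 to 7 h, against 8.30, 7.76 and 7.46 at 1 to 3 h. JDP2, a repressor that pairs with AP-1 proteins, had 6.40, 6.03, 5.22 and 5.35 at 4 to 7 h, against 8.02, 7.13 and 6.75 at 1 to 3 h. TUBE1, a centriolar tubulin, had 8.90, 8.46, 8.09 and 7.87 at 4 to 7 h, against 10.38, 9.77 and 9.23 at 1 to 3 h. All were falling within the early window already. The windows were apart, as the rule for the largest falls required, and the differences were -1.58 ± 0.30, -1.55 ± 0.35 and -1.46 ± 0.29. Their limma adjusted p-values of 0.0111, 0.0169 and 0.0126 became 0.0523, 0.0628 and 0.0587 without the 2 h array. Without that array the largest falls past the threshold also took in PDE4D, a cyclic AMP phosphodiesterase (-1.46), GTPBP2, a ribosome rescue factor (-1.38), and KLF9, a glucocorticoid-induced repressor (-1.31).

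Inflammatory genes divided. The list of NF-kB subunits and feedback also held TNFAIP2, SOD2 and IRF1, which are neither subunits nor inhibitors of NF-kB. Of its 20 genes, 8 were higher and 2 lower, with a median of 0.33, and 1 and 1 passed without the 2 h array. TNFAIP2, a TNF-induced protein, had 11.21, 11.73, 11.65 and 11.57 at 4 to 7 h, against 9.39, 10.41 and 10.96 at 1 to 3 h. It differed by 1.28 ± 0.31 (limma adjusted p = 0.021, and 0.0711 without the 2 h array), and its largest step was the one to 2 h. SOD2, the mitochondrial superoxide dismutase, rose by 0.97 ± 0.20, whereas IRF1, an interferon-response factor, differed by -0.52 ± 0.11 (limma adjusted p = 0.0133 and 0.0156). Of the 5 NF-kB subunit genes 4 were higher, and of the 5 inhibitor genes 1 was lower. In limma 0 of either passed without the 2 h array (4 and 1 at an unadjusted p under 0.05). Of 13 cytokines and chemokines 1 was higher and 2 lower, and 0 passed in limma without the 2 h array (6 at an unadjusted p under 0.05). Over all genes tested 24.3% passed in either direction with all 7 arrays, so this count lay near that share. CXCL8, a neutrophil chemokine, had 12.21, 12.07, 11.97 and 11.87 at 4 to 7 h, against 12.36, 12.51 and 12.27 at 1 to 3 h (difference -0.35 ± 0.10, limma adjusted p = 0.0347, and 0.125 without the 2 h array). CXCL6, chosen after its values were seen, differed by 1.07 ± 0.39 and did not pass.

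Of 21 interferon-stimulated genes 6 were higher and 0 lower, against 16.8% and 7.57% of all genes tested. The median was 0.23, and 4 were higher without the 2 h array. GBP1, an interferon-induced GTPase, had 7.63, 8.39, 8.04 and 8.10 at 4 to 7 h, against 5.75, 6.18 and 7.08 at 1 to 3 h. Its paralog GBP3 had 8.78, 9.34, 9.04 and 9.29 at 4 to 7 h, against 6.74, 7.37 and 8.06 at 1 to 3 h. They differed by 1.71 ± 0.29 and 1.72 ± 0.27 (limma adjusted p = 0.00863 and 0.0076), both rising to 5 h. IFIH1, a sensor of double-stranded RNA, rose by 0.96 ± 0.12 (limma adjusted p = 0.00656). GBP2, another paralog, differed by 0.07 ± 0.11 and did not pass.

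Ribosome biogenesis and ribosomal protein genes gave different counts. Of 35 genes of the MYC network and ribosome biogenesis 18 were higher and 3 lower, with a median of 0.25, and 7 were higher without the 2 h array. LYAR, a nucleolar protein, had 10.06, 10.17, 9.92 and 9.86 at 4 to 7 h, against 8.66, 8.84 and 9.35 at 1 to 3 h (difference 1.05 ± 0.16, limma adjusted p = 0.00697). RRS1, an assembly factor of the large subunit, rose by 0.82 ± 0.10 (limma adjusted p = 0.00677). Of 30 cytosolic ribosomal protein genes 0 passed in limma (1 at an unadjusted p under 0.05), with differences between -0.06 and 0.28 and a median of 0.00. Of 28 oxidative phosphorylation genes 0 passed (0 at an unadjusted p under 0.05), with a median of 0.02. Many ribosomal protein probe sets lie near the top of the scale, RPS27 at 14.22 to 14.35, where changes can be hidden. Sterol and fatty acid synthesis genes were higher in 11 of 23 and lower in 0, with a median of 0.22, and 0 of them passed without the 2 h array (10 at an unadjusted p under 0.05). HMGCS1, an early enzyme of cholesterol synthesis, rose by 0.65 ± 0.13 (limma adjusted p = 0.0133, and 0.0629 without the 2 h array).

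The calls in the remaining lists were few without the 2 h array. Over all genes tested 16.8% were higher and 7.57% lower with all 7 arrays, and several of these counts lie near such shares. Cytosolic heat shock genes were higher in 7 of 21 and lower in 2, and 0 passed in limma without that array (11 at an unadjusted p under 0.05). HSPA6, an inducible HSP70, had 8.04, 6.68, 6.35 and 5.72 at 4 to 7 h, against 7.35, 8.94 and 9.71 at 1 to 3 h, so that its windows overlapped; the difference was -1.97 ± 0.61 (limma adjusted p = 0.0455, and 0.155 without the 2 h array). Hypoxia and glycolysis genes were lower in 4 of 29 and higher in 1 (1 and 0 without the 2 h array), and VEGFA, the angiogenic growth factor, differed by -0.68 ± 0.16 (limma adjusted p = 0.0179). In BMP and TGF-beta signalling 5 of 17 were higher and 3 lower, and 2 and 1 without the 2 h array. PMEPA1, a TGF-beta-induced inhibitor of SMAD signalling, had 10.01, 10.12, 10.05 and 9.99 at 4 to 7 h, against 7.95, 8.38 and 9.26 at 1 to 3 h (difference 1.51 ± 0.25, limma adjusted p = 0.00838). Clock genes were lower in 5 of 15 and higher in 1, and in 1 and 0 without the 2 h array. BHLHE40, a clock repressor, differed by -0.96 ± 0.12 (limma adjusted p = 0.00677), while 0 of the 4 PER and CRY genes tested passed (1 at an unadjusted p under 0.05). Of 20 p53 targets 4 were lower and 1 higher, of 16 BCL2 family genes 3 were lower and 3 higher, and of 19 NRF2 targets 2 were lower and 1 higher. In each of these 3 lists 1 gene was lower without the 2 h array, and 1 BCL2 family gene was higher.

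The lists moved at different hours. The ATF4 list lay 0.71 below its 1 h level at 2 h in the median, 0.90 below at 3 h, 1.29 below at 4 h and 1.87 below at 7 h. The licensing list lay at -0.09 at 2 h, 0.29 at 3 h, 0.75 at 4 h, 1.29 at 5 h and 1.55 at 7 h. The fork list was at 0.05 at 3 h, 0.27 at 4 h, 0.71 at 5 h and 1.16 at 7 h. The G2 and mitosis list was at -0.18 at 3 h, 0.02 at 5 h and 0.32 at 7 h, and on the treated 24 h array at 1.20. Its 0 h control was already at 0.92 and its 24 h control at -0.06. NF-kB genes had most of their difference by 2 h, at 0.30, with 0.39 at 7 h. The median of all genes lay at -0.09 at 2 h and between -0.0115 and 0.0115 at 3 to 7 h.

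**Figure D4:**
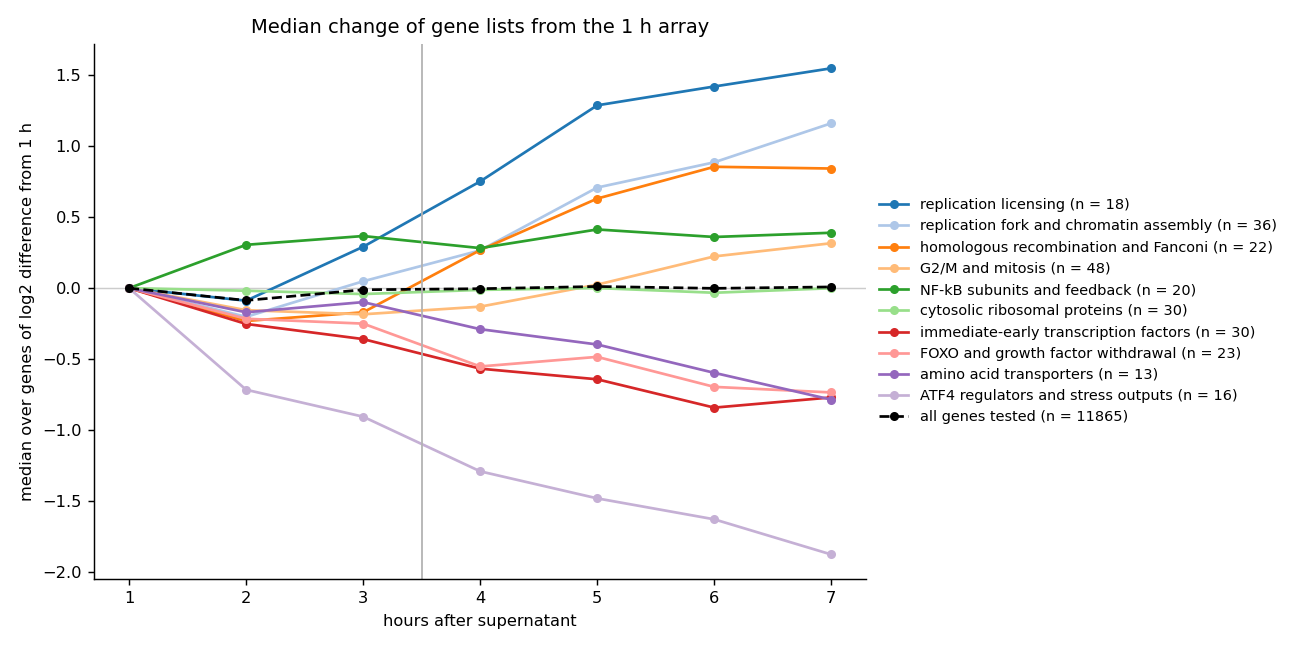
Median log2 difference from the 1 h array (vertical axis) against hours after the supernatant (horizontal axis) for 10 gene lists and all genes tested (dashed). The grey line marks the border between the windows. The ATF4 list falls from 2 h on, licensing genes climb from 3 h, and the mitosis list passes 0 at 5 h.

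Step by step, fewer genes changed at least 2-fold between later hours than between early ones. There were 13 up and 12 down between 1 and 2 h, 14 up and 3 down between 2 and 3 h, 6 up and 3 down between 3 and 4 h, and 1 up and 3 down between 4 and 5 h. Between 5 and 6 h there was 1 up and 0 down, and between 6 and 7 h 0 up and 5 down. The median absolute step over all genes was 0.15, 0.16, 0.11, 0.10, 0.10 and 0.08 in the same order, and the first 2 steps include the compressed 2 h array. Each step is the difference of 2 single arrays and has no test.

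Between 7 h and 1 h, 211 genes were at least 2-fold higher and 189 at least 2-fold lower. The hour from which a gene stayed past the midpoint of its 1 h and 7 h levels was 4 or 5 h for 246 of these 400. A gene that crossed the midpoint earlier and fell back counts at the later hour. Of the 211 higher genes 6 stayed past it from 2 h, 49 from 3 h, 73 from 4 h, 73 from 5 h, 9 from 6 h and 1 from 7 h. Of the 189 lower genes 21 stayed past it from 2 h, 49 from 3 h, 53 from 4 h, 47 from 5 h, 18 from 6 h and 1 from 7 h. A steady move in 1 direction at every hour was seen in 29 of the higher and 33 of the lower genes. Among the 22 fork genes at least 2-fold apart, 18 stayed past the midpoint from 5 h and 3 from 4 h. Among the 11 licensing genes 7 did so from 5 h and 4 from 4 h. Of the 13 ATF4-list genes 6 stayed past it from 2 h. This is a description of single arrays and was not tested.

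**Figure D5:**
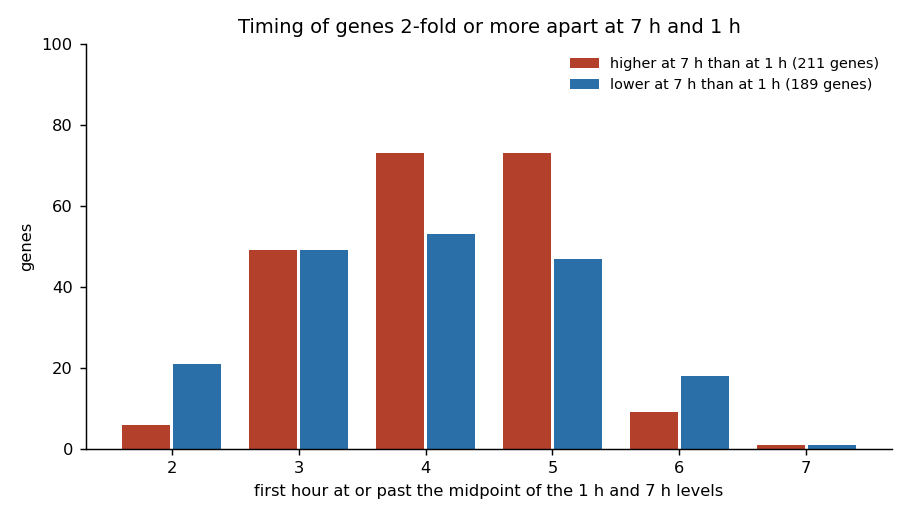
Number of genes (vertical axis) by the first hour from which they stayed past the midpoint of their 1 h and 7 h levels (horizontal axis), for the 211 genes at least 2-fold higher and the 189 at least 2-fold lower at 7 h than at 1 h. Hours 4 and 5 hold 73 genes each among the higher ones.

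The steps that stood out were of few genes. HSPA6 had the largest rise between 1 and 2 h, 1.60, among genes past the threshold, and the largest fall between 3 and 4 h, -1.67. GDF15, a stress cytokine, had the largest fall between 1 and 2 h, with 6.64, 6.61, 6.67 and 6.64 at 4 to 7 h, against 9.24, 7.67 and 7.00 at 1 to 3 h, so that it was level throughout the later window. Its difference was -1.33 ± 0.42 (limma adjusted p = 0.0465, and 0.106 without the 2 h array). The call of GDF15 was also lost without the 4, 5, 6 or 7 h array. LRP8, a lipoprotein receptor, had 9.50, 9.57, 9.71 and 9.63 at 4 to 7 h, against 7.78, 7.88 and 9.16 at 1 to 3 h. It took its step between 2 and 3 h, inside the early window. SLC30A1 was among the 2 largest falls at each of the last 3 steps, with -1.09 to 5 h, -0.86 to 6 h and -1.18 to 7 h. COX3 and UBBP1, a mitochondrial gene and a ubiquitin pseudogene whose probe sets can share signal with close copies, stood out at 2 h alone, with 10.03 and 10.74 there, against 9.11 and 9.72 at 1 h.

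A change with hour and a change of window could not be separated. A straight line in hour called 1969 genes higher and 1201 lower over the same 7 arrays. With hour kept in the fit as a covariate, the window difference passed for 0 genes by limma, with 881 at an unadjusted p under 0.05.

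The controls did not sit at one end of these changes. For the licensing list the 0 h control was 1.35 above the 1 h array in the median and the 24 h control 0.11 above it, next to 1.55 for the 7 h array. For the ATF4 list the 0 h control was at -1.32 and the 24 h control at 0.30, next to -1.87 at 7 h. ORC1 had 8.12 and 6.68 in the 0 h and 24 h controls, and TRIB3 had 10.46 and 12.13. On both lists the 1 h array thus lay nearer to the 24 h control and the 7 h array nearer to the 0 h control. Of the 1988 higher genes 558 (28.1%) had early means below both controls and later means above both, against 7.54% of all genes tested, and of the 898 lower genes 245 (27.3%) had the opposite, against 5.33%. Calling genes by their difference between windows itself makes these positions more frequent, so the larger shares are no separate result. For 444 of the higher genes the later mean lay between the controls and the early mean below both. GBP1 and TNFAIP2 belonged to the genes whose later levels were above both controls, with control levels of 6.35 and 6.08 for GBP1 and 9.25 and 9.32 for TNFAIP2. With 1 control array at each of 2 times these positions have no test, and what sets the controls apart was not tested.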

How the data were processed

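Total RNA of MiaPaCa-2 cells was hybridised to Affymetrix U133 Plus 2.0 arrays. The deposited values are log2 intensities from RMA, a method that scales arrays to a common distribution, as named without a version in the submitters' processing notes. All tests used the deposited table of 54675 probe sets as it stood, with no further scaling, and a smaller deposited table of 7622 probe sets was an alternative. Gene names came from the platform annotation, and a gene was read from its brightest probe set with a single symbol. Genes at or above the 40th percentile of mean level (log2 5.79) were tested, 11865 in all.

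Windows followed the hours in the labels. Two-sided tests came from lmFit and eBayes of limma 3.58.1 under R 4.3.3, over the 7 treated arrays and again without the 2 h array, each with Benjamini-Hochberg adjustment over all genes tested. The scripts were tested on simulated data: of 100 genes changed by 1 log2 unit, the 7-array fit recovered 95% and the 6-array fit 88%, with 12 false calls each. The simulated noise was normal and independent, with no change within a window and no shift of a whole array. These rates therefore need not hold for the real arrays.

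Named genes were the 12 largest rises and falls past the threshold with windows apart and an unadjusted p under 0.05 without the 2 h array, up to 10 in each direction without the 2 h array, the 2 largest rises and falls of each hourly step, and the 4 list members with the smallest p. The text gives a selection of these, and members of complexes and families outside that rule were chosen after their values were seen. The comparison, lists and rule were chosen with earlier results of these data known. Filters, probe-set choice, scaling, the smaller table, the variance prior, the arrays in the fit and the form of the change were varied.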

Additional observations from a re-analysis of the deposited data

Results flagged for a closer look

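Among the 99 genes given with values, 3 had 1 array of hours 4 to 7 far from the other 3 arrays of that window by Dixon's test at its 95% level. Chance alone flags about 1 in 20 such groups. The early window of 3 arrays was too small for this test. CCNE2 was at 9.04 at 4 h, with the other later arrays between 9.68 and 9.81. ZNF367 was at 9.13 at 4 h, with the other later arrays between 9.77 and 9.85. YPEL3 was at 6.90 at 6 h, with the others between 7.21 and 7.27. For CCNE2 and ZNF367 the 4 h array was the lowest of its window and lay above every early array, as the rule for the largest rises required.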

How the results depend on the processing

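The 7-array count of 2886 genes, of 11865 tested, stayed within 1.5 times of itself under 11 of the other settings listed here and moved under 3. This compares counts and not shares, and the number tested differed. The count was 2378 of 19775 with no filter, 2441 of 7910 with the filter at the 60th percentile and 2355 of 4538 in the smaller deposited table. It was 4847 of 32805 with each probe set on its own, 0 with hour as a covariate (881 at an unadjusted p under 0.05) and 606 without the 2 h array. Leaving out 1 array in turn gave 606 to 3478. Without the 2 h array, where the count was 606, it was 234 with no filter, 0 of 32805 with each probe set on its own (7759 at an unadjusted p under 0.05), 348 under cyclic loess, 143 under quantile scaling, 1125 with an intensity trend and robust prior, 3 with the controls kept in the fit, 2474 with hour as a linear term, 0 with hour as a covariate (765 at an unadjusted p under 0.05) and 1705 with hours 5 to 7. The share of higher calls was 68.9% with all 7 arrays, 52.2% under cyclic loess and 50.1% under quantile scaling. The timing count of 246 genes became 315 with the midpoint of the window means.

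Of 89 named genes past the threshold, 32 lost it without the 2 h array, 15 with the controls kept in the fit and 2 under cyclic loess. Of the 99 genes given with values, 4 that had not passed (FOS, GBP2, ORC4 and RFC1) changed sign when 1 array was left out, and 0 of the 89 did. The 89 were picked on these same arrays, so their kept sign is no independent check. With hour as a covariate all 89 lost the threshold. Of these, 84 kept their sign and 5 changed it, at 0.0124 for CARS1, 0.087 for JDP2, -0.0215 for MCM6, 0.26 for SLC30A1 and 0.20 for SLC7A11. The cause was not tested. List medians moved by less than the spread between arrays of their medians under loess, quantile scaling and without the 2 h array. That spread includes the change with time within each window, so it is a wide limit for the lists that change most. No paired analysis was possible because the windows are different hours of single arrays and share no replicate. Signal near the background limits the genes close to the filter, and levels near the top of the scale can hide change.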

Other observations

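Some probe sets have no single gene symbol. Of 5689 such probe sets above the filter, 344 were higher and 286 lower at hours 4 to 7 when each probe set was tested on its own with limma, 11.1% in all, while over all 32805 probe sets in the same fit 3467 were higher and 1380 lower, 4847 together and thus a larger share. The probe set with the largest rise had 6.42, 6.66, 6.30 and 6.03 at 4 to 7 h, against 4.36, 4.48 and 5.63 at 1 to 3 h. The next had 9.54, 9.89, 9.96 and 9.89 at 4 to 7 h, against 8.18, 8.36 and 9.09 at 1 to 3 h. The largest falls among the called probe sets were -1.40 and -1.37. The files name no single gene for these 4 probe sets.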
